A study of Mus musculus with 6 samples.

Results

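The genes described here are 10 members of the YAP and TAZ axis and of the CCN family of secreted matrix proteins, chosen by symbol from a table of 19078 genes: *Yap1*, *Wwtr1*, *Lats2*, *Amotl2*, *Ankrd1*, *Ctgf*, *Cyr61*, *Nov*, *Wisp1* and *Wisp2*. All 10 were found under these symbols. The RNA came from immortalized mouse fibroblasts (MF). Per the study's methods the line is of male embryonic fibroblasts with a conditional *Gpx4* knockout that express Cre-ERt2. Of the libraries, 3 were of *Ms4a15* OE cells, a pool of cells, not a clone, in which a lentiviral CRISPR activation guide drives *Ms4a15*. Another 3 were of control cells, given as wild type by the sample labels and as cells with an empty lentivirus by the study's methods. The study's methods also state that the lentiviral cell pools were selected with geneticin when the lines were made. Both groups grew in DMEM with serum and antibiotics, and no further treatment or time point is named for these libraries. The values used are 1 number per gene, the authors' mean over all 6 libraries of the counts after scaling by a size factor for depth. This mean takes both groups together, so a difference between *Ms4a15* OE and control is given for no gene, and the levels below carry no SD between libraries. Fewer cells with a transcript and less transcript per cell cannot be told apart in such bulk RNA.

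YAP, the product of *Yap1*, and TAZ, the product of *Wwtr1*, are transcriptional coactivators without a DNA-binding domain of their own. They act in the nucleus through the TEAD transcription factors. The Hippo kinases, with LATS1 and LATS2 as the last step, phosphorylate both proteins and keep them in the cytoplasm, and angiomotins such as AMOTL2 hold them at junctions and at actin. *Ctgf*, *Cyr61* and *Ankrd1* are the target genes most often read as a measure of YAP and TAZ activity, and *Lats2* and *Amotl2* are targets that feed back on the pathway. CTGF and CYR61 are CCN proteins, secreted proteins that bind integrins and growth factors. NOV, WISP1 and WISP2 belong to the same family.

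The promoter sequences are shown for the letters of the TEAD site, the DNA that TEAD factors recognise. Promoter windows from RefSeq (GRCm38.p6), each from 250 bases before to 50 after a start site, were at hand for 6 of the 10 genes, *Yap1*, *Wwtr1*, *Lats2*, *Cyr61*, *Ankrd1* and *Amotl2*. *Wwtr1* and *Lats2* had more than 1 start, which gave 8 windows. Windows of *Ctgf*, *Nov*, *Wisp1* and *Wisp2* were not analysed here. The core of the TEAD site, GGAATG on either strand (CATTCC when read on the other), was found in at least 1 window of all 6 genes and in 7 of the 8 windows. Of all 32851 RefSeq windows of this length, 14.7% held it. The share was 13.0% in windows of genes of the table, and 11.6% in windows of genes whose mean reached 1000 normalized counts. The window without a core was that of the *Lats2* start further along the gene, chr14:57734369-57734668. A match is a description of the letters, and binding of TEAD was not measured in these libraries.

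The cores make up 7 distinct sites, as the windows of *Wwtr1* start 34 bases apart and share theirs. They are shown as read in the GGAATG direction, with the core in capitals, 10 bases on each side and the position of the core on GRCm38.p6:
*Yap1*, chr9:8004732-8004737: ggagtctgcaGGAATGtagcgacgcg
*Wwtr1*, chr3:57576041-57576046: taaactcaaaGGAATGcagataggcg
*Lats2*, chr14:57746114-57746119: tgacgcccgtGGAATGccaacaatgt
*Cyr61*, chr3:145650083-145650088: aaacatctcaGGAATGttggttggcg
*Ankrd1*, distal, chr19:36120049-36120054: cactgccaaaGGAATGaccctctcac
*Ankrd1*, proximal, chr19:36119962-36119967: cactaagtctGGAATGaaaattcacc
*Amotl2*, chr9:102717739-102717744: tgctatgccaGGAATGtgagagtttc

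An A stood directly before the core in 5 of the 7 sites and a T in the other 2, *Lats2* and the proximal site of *Ankrd1*. Among the cores of all windows, 34.4% were preceded by an A. The sites did not share a distance from the start. Counted from the RefSeq start site, the core of *Yap1* began at base -141, that of *Cyr61* at -103 and that of *Amotl2* at -65. By contrast, the core of *Lats2* began at base 5 of the transcript. *Ankrd1* alone had a pair of cores, beginning at -210 and -123. In GENCODE M21 the gene spans of *Ankrd1*, *Amotl2* and *Lats2*, given below, begin upstream of their cores. These distances therefore hold for the RefSeq starts only. The core of *Wwtr1* began at -170 from 1 of its starts and at -136 from the other. It pointed along the gene in *Yap1*, *Wwtr1*, *Lats2* and *Ankrd1* and against it in *Cyr61* and *Amotl2*.

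**Figure D1:**
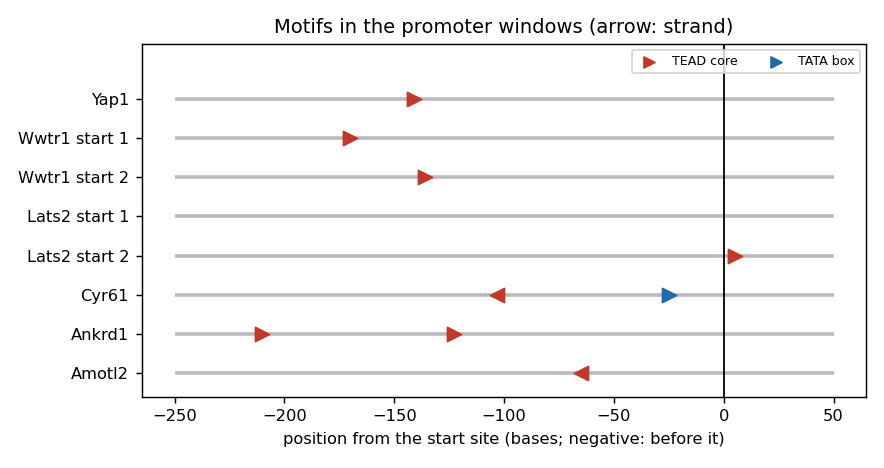
Each line is a promoter window, from 250 bases before to 50 after the start site, and each arrow marks the first base of a motif, pointing right on the gene's own strand and left on the other. All 6 genes have a TEAD core in at least 1 window. *Cyr61* alone also has the TATA box in the only spelling searched, TATAAA.

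The whole windows of *Cyr61*, *Ankrd1* and *Amotl2* are given because they hold both the core and the start site. These are target genes with the core before the RefSeq start. *Lats2*, also a target, has its core after the RefSeq start and is shown above by its site only. Each is written on the gene's own strand with the TEAD core in capitals:
*Cyr61*, chr3:145649936-145650235, minus strand: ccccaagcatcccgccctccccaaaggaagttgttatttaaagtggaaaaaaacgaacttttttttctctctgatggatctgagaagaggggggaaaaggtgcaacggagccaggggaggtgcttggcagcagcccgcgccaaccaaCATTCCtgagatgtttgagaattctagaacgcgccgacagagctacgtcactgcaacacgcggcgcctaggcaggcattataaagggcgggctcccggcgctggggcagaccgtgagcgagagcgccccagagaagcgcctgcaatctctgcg
*Ankrd1*, chr19:36119795-36120094, minus strand: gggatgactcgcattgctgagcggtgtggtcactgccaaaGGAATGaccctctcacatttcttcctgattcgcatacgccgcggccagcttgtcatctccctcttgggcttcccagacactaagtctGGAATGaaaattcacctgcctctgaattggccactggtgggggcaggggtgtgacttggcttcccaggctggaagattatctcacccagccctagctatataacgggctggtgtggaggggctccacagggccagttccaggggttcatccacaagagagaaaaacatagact
*Amotl2*, chr9:102717554-102717853, plus strand: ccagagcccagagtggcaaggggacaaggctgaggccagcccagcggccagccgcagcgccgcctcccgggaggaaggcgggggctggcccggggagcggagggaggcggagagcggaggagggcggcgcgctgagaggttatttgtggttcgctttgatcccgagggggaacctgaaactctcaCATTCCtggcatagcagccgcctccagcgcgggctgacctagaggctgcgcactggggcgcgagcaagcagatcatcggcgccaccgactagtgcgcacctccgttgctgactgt

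The other motifs searched were counted in the same windows. The TATA box, spelled TATAAA on either strand, was found in *Cyr61* only, beginning at base -25, and 13.6% of all windows held it. Other spellings of the TATA box were not searched. The AP-1 site, TGANTCA, was in 0 of the 8 windows and in 7.81% of all windows. The CArG box bound by SRF was also in 0 of the 8, against 1.63% of all. The window of *Yap1* had a GC content of 74.0% with 49 CpG dinucleotides, and that of *Ankrd1* one of 54.7% with 7. The *Lats2* window without a TEAD core had 42.7% with 4. The median over all windows was 52.7% and 7 CpG.

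Of the 10 genes, 7 were above the median gene of the table in level and 3 below. To set genes of different length side by side, each mean was divided by the exon length of the gene, and a level is given per kilobase of exon. *Cyr61* was highest at 9669 normalized counts per kilobase, followed by *Ctgf* at 4778, *Ankrd1* at 2466, *Amotl2* at 1179, *Wwtr1* at 799, *Yap1* at 661.9 and *Lats2* at 278.2. These 7 lay above the median of 107.4 over the 16521 genes with a known exon length. *Wisp1* at 26.95, *Nov* at 9.455 and *Wisp2* at 2.381 lay below it. Between *Lats2* and *Wisp1*, the neighbours on either side of the median, the authors' means dropped from 1940 to 150.0 normalized counts.

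**Figure D2:**
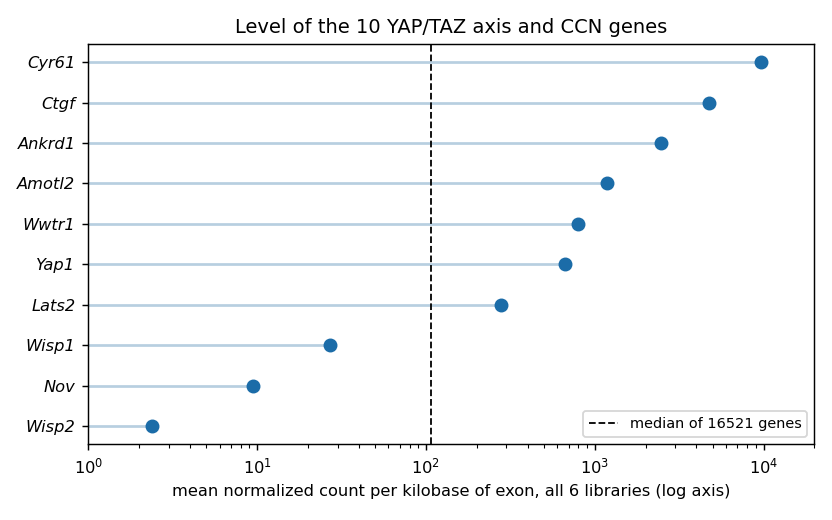
The level of each of the 10 genes, as the authors' mean normalized count over all 6 libraries per kilobase of exon on a log axis, with a dashed line at the median of 16521 genes. The 7 genes from *Cyr61* to *Lats2* lie to the right of the line and *Wisp1*, *Nov* and *Wisp2* to the left.

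How far neighbours in this order differ beyond the spread between libraries was not tested, since no value of a single library was used for the higher genes. Counting error was small: size factors bound the reads of *Lats2* over all libraries between 10317 and 13229, a counting error of at most 0.985%, and those of *Wisp1* between 798 and 1023, at most 3.54%. For *Nov*, with 144 to 185 reads, it was at most 8.32%. These bounds cover counting error only. The order of *Amotl2*, *Wwtr1* and *Yap1* depends on the length used. Per kilobase of coding sequence *Yap1* stood above *Amotl2* and *Wwtr1*, and per kilobase of the longest transcript it stood between them.

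The coactivators themselves were both well above the median gene. *Yap1* lies on the minus strand of chromosome 9 from 7931999 to 8004596 and has an exon length of 9257 bases, with 1464 bases, or 488 codons, in its longest coding sequence. The authors' mean was 6127 normalized counts. *Wwtr1*, which encodes TAZ, lies on the minus strand of chromosome 3 from 57455649 to 57575910, with 4779 exon bases and 1356 coding bases. Its authors' mean was 3819 normalized counts. The mean of *Yap1* was thus 1.60 times that of *Wwtr1*, but per kilobase of exon *Yap1* had 0.828 of the level of *Wwtr1*. Per kilobase the pair was at the 80.4th and 83.4th percentile of genes.

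The DNA-binding partners were on the same scale as the coactivators, with 1 exception. Per kilobase of exon, *Tead2* had 772.4 normalized counts, *Tead1* 578.1 and *Tead4* 469.5. *Tead3* had 45.91, so that *Tead1* exceeded it 12.6-fold per kilobase and 25.4-fold by the mean. By the authors' mean *Tead1*, at 7845 normalized counts, stood above *Tead2* at 3698. The VGLL proteins bind TEAD factors in place of YAP and TAZ. Among them *Vgll3* had 400.9 and *Vgll4* 114.6 normalized counts per kilobase, and *Vgll1* and *Vgll2* were not found under these symbols. Of the 8 genes found among the coactivators, TEAD factors and VGLL proteins, 7 were above the median gene per kilobase, and the median of the list was 523.8.

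*Lats2*, the kinase that phosphorylates YAP and TAZ, lies on the minus strand of chromosome 14 from 57689662 to 57758388. Its authors' mean was 1940 normalized counts over an exon length of 6971 bases. Its relative *Lats1* had a mean of 4400 and, per kilobase of exon, 2.17 times the level of *Lats2*. A second annotated gene on the same strand, *Gm49361*, shares 42.4% of the exon bases of *Lats2* in GENCODE M21, and 39.9% of its windows of 100 transcript bases occur in transcripts of that gene. The value of *Lats2* is therefore uncertain where the annotation used for counting held such an overlap. The rest of the kinase module was detected throughout. All 16 listed kinases and partners reached a mean of 100 normalized counts, as 54.7% of all genes in the table did. Of the 16, 15 were above the median gene per kilobase. *Map4k4* at 1319, *Taok1* at 1098 and *Nf2*, the gene of merlin, at 1027 were the highest per kilobase, and *Taok3* at 85.81 the lowest.

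*Amotl2*, on the plus strand of chromosome 9 from 102716672 to 102733418, had an authors' mean of 7415 normalized counts over 6289 exon bases. It was the highest of the 3 angiomotins. Per kilobase of exon it exceeded *Amotl1* 2.57-fold and *Amot* 5.52-fold. Of the 17 listed regulators upstream of YAP and TAZ, 14 were above the median gene per kilobase. The 14-3-3 genes *Ywhae* and *Ywhaz*, whose proteins bind phosphorylated YAP and TAZ in the cytoplasm, were highest at 14310 and 4322 normalized counts per kilobase. The atypical cadherin *Fat1* had a mean of 10597 normalized counts, whereas *Fat4* and its partner *Dchs1* had means of 1.541 and 3.389.

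*Ankrd1* encodes a nuclear ankyrin repeat protein that responds to mechanical load in muscle. It lies on the minus strand of chromosome 19, the chromosome of *Ms4a15*, from 36111961 to 36120099. Its authors' mean was 7117 normalized counts over 2886 exon bases. The mean was 0.960 of that of *Amotl2*, yet per kilobase *Ankrd1* stood 2.09-fold higher, and 3.73-fold above *Yap1*. Among 4 muscle markers, *Myod1* and *Myog* were not found in the table, and *Des* and *Myh3* had means of 118.6 and 7.967 normalized counts.

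The CCN family was split more widely than any other family plotted. *Cyr61* lies on the minus strand of chromosome 3 from 145646976 to 145649981 and is a compact gene of 2019 exon bases. Its authors' mean was 19521 normalized counts, and its level per kilobase was at the 99.1st percentile. *Ctgf* lies on the plus strand of chromosome 10 from 24595442 to 24598683, with 2861 exon bases and a mean of 13670. Per kilobase *Cyr61* stood 2.02-fold above *Ctgf*. The pair made up 55.5% of the summed means of the 10 genes. A noncoding gene on the opposite strand, *Gm15270*, covers 23.2% of the exon bases of *Ctgf*, and such reads are separate only where counting used the strand.

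The other CCN genes were low. *Wisp1*, on the plus strand of chromosome 15 from 66891320 to 66923201, had an authors' mean of 150.0 normalized counts, and *Ctgf* exceeded it 177-fold per kilobase. *Nov*, on the plus strand of the same chromosome from 54745702 to 54754039, had a mean of 27.13. *Wisp2*, on the plus strand of chromosome 2 from 163820861 to 163833146, had a mean of 4.581, at the 25.9th percentile per kilobase. Its coding sequence of 753 bases is the shortest of the 5 CCN members, which otherwise ran from 1044 in *Ctgf* to 1137 in *Cyr61*. The sixth CCN gene, *Wisp3*, is no member here and had a mean of 0.147, which is that of 1 read in a single library and the lowest value of the table, shared with other genes. From *Cyr61* to *Wisp2* the level per kilobase fell 4061-fold. No window of 100 transcript bases of *Cyr61*, *Nov*, *Wisp1* or *Wisp2* occurs in transcripts of another gene, so their reads at this length are not shared between family members.

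*Wisp2* was the only one of the 10 genes with a mean under 10 normalized counts. Its reads in each library were solved from the printed mean. The mean of a gene with 1 read in a single library depends only on that library's size factor, which gave the 6 size factors as 1.137, 1.106, 1.021, 0.946, 0.938 and 0.887. Values under a mean of 1.5 set these factors. Of the 1622 genes from there to a mean of 5, which did not, exactly 1 set of 6 whole read numbers gave the mean within 1e-09 for all 1622. For *Wisp2* the only solution was 4, 8, 5, 8, 0 and 3 reads in the libraries in that order of size factors, 28 reads in all. Divided by the size factors, these were 3.52, 7.23, 4.90, 8.45, 0 and 3.38 normalized counts. *Wisp2* was thus at no more than 8 reads in any library and at 0 in 1 of the 6. A count of 0 still allows an expected count of up to 3 reads, as an upper bound at 95% confidence. The solution does not say which library belongs to which group, so these values enter no comparison of *Ms4a15* OE with control.

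**Figure D3:**
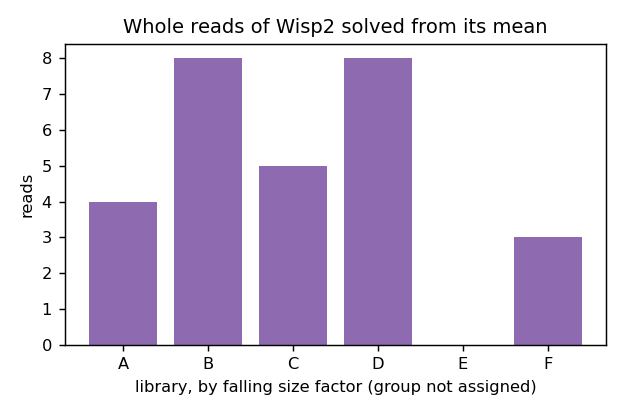
Reads of *Wisp2* in each of the 6 libraries, solved from the authors' mean, with libraries A to F ordered by falling size factor and assigned to no group. The bars run from 0 to 8 reads and add up to 28.

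A wider list of known YAP and TAZ targets reached above and below the levels of the 10 genes. Of its 26 genes 25 were found, 23 reached a mean of 100 normalized counts, as 54.7% of all genes in the table did, and 19 were above the median gene per kilobase. The receptor kinase gene *Axl* had a mean of 28121 and *Thbs1*, the gene of thrombospondin, 22832. At the other end, *Foxf2* and *Igfbp3* had means of 0.620 and 0.328, which correspond to 4 reads and 2 reads over the 6 libraries. *Nuak2*, *Tgfb2* and *Rbms3* had means of 349.8, 427.8 and 443.5. Outside the 10 genes, 13 genes of this list had a promoter window, and 3 of them, *Axl*, *Crim1* and *Ptpn14*, held a TEAD core, 23.1% of genes beside 16.6% of all genes with a window. Among the TEAD and VGLL genes it was 4 of 6, *Tead3*, *Vgll1*, *Vgll3* and *Vgll4*, among the other upstream regulators 4 of 11, and among the other kinases and partners 3 of 13. The list holds no measure of change and is given as levels only.

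**Figure D4:**
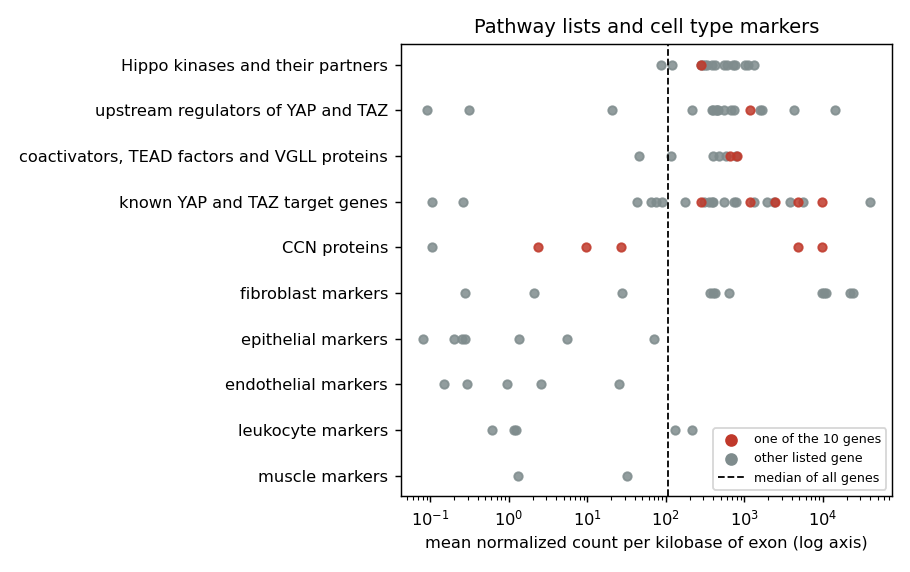
Levels per kilobase of exon on a log axis for the genes of 10 lists, as the authors' mean normalized count over all 6 libraries, with the 10 genes in red, other listed genes in grey and the median gene as a dashed line. The kinases and upstream regulators lie mostly to the right of the line, and the epithelial and endothelial markers to the left.

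The labelled cell type was checked against marker genes. *Col1a2*, *Vim*, *Fn1* and *Col1a1* had means of 135155, 115135, 114243 and 66981 normalized counts. Of 12 fibroblast markers, 10 reached a mean of 100, as 54.7% of all genes in the table did. Per kilobase, 9 of the 12 were above the median gene, and *Pdgfra*, at 27.69 normalized counts per kilobase and a mean of 277.5, was below it. The fibroblast proteoglycans *Dcn* and *Lum* were close to absent, with means of 12.10 and 0.675. Among epithelial markers *Ocln* had a mean of 295.1, *Krt8* 10.88, *Cdh1* 1.167 and *Epcam* 0.176, and among endothelial markers *Cdh5* was highest at 106.5, where the median mean of the table was 236.9. Per kilobase, 0 of 7 epithelial and 0 of 5 endothelial markers found were above the median gene. Of 5 leukocyte markers found, *Cd14* at 215.9 and *Cd68* at 130.6 normalized counts per kilobase were above it, with *Ptprc* at 0.608. *Ms4a15*, the targeted gene, had a mean of 637.5 normalized counts over both groups, which does not check the labels. The means of all genes added up to 40991755 normalized counts, and the highest size factor was 1.28 times the lowest.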

How the data were processed

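Poly(A)-selected RNA of 3 *Ms4a15* OE and 3 control libraries was sequenced as paired ends. The labels name a stranded kit and longer reads than the study's methods, which do not name a stranded one, and the strand setting of the counting is not given in the sources used here. Per the study's methods the authors aligned reads to mm10 with STAR, used HTSeq-count for counts per gene and DESeq2 to compare the groups, while the submitters' processing notes name TopHat, Cufflinks, Cuffdiff, HTSeq and DESeq2. The signal used is a mean the authors deposited, taken for each gene over all 6 libraries after size-factor scaling of its counts. The same table holds the authors' own comparison (log2 fold changes, standard errors, p-values, adjusted p-values and a direction), which was not used. Replicates are separate samples by label, and separate cultures are not stated. Of the symbols, 25 read as calendar dates and were left.

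Exon length is the union of exons in GENCODE M21 (GRCm38, the assembly of mm10). Of 19078 genes, 16521 were matched by symbol or by an older symbol in RefSeq, 86.6%. *Mob1a*, *Mob1b* and *Ajuba* stand under older symbols. Percentiles count the genes with a lower value. Reads per library were solved for genes of the pathway lists with a mean under 10, of which *Wisp2* at 4.581 was the highest. The procedure was tested on simulated data, where 400 of 400 read sets were recovered. Motifs were searched in RefSeq promoter windows. Named genes were taken from the 10 genes, their family relatives, *Ms4a15*, and, in each list, the 3 highest means and the 3 lowest above 3 normalized counts. Some genes that meet this rule, such as *Stk38l*, *Wtip*, *Btrc* and *Thy1*, are not described. *Fat4*, *Foxf2*, *Igfbp3*, *Lum*, *Epcam*, *Cdh1*, *Col1a1*, *Crim1*, *Ptpn14*, *Vgll1* and *Vgll3* are named beyond this rule and were chosen after their values were seen. The 10 genes, the lists and the motifs were chosen with earlier results of these data known. Protein sequences were not analysed here. The value of 1 listed target gene is not reported here. Python 3.11.15, numpy 2.4.6, scipy 1.17.1 and matplotlib 3.10.9 were used.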

Additional observations from a re-analysis of the deposited data

How the results depend on the processing

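The lengths of coding sequence and longest transcript were chosen as alternatives after the data were seen, and the others were planned. Of the 10 genes, 7 were above the median gene per kilobase. This was 7 where genes had to reach a mean of 10 normalized counts, 6 where they had to reach 100, as *Lats2* fell to the 42.3rd percentile, and 7 with either other length. Of 37 percentiles of single genes recomputed, 31 left the 95% binomial interval of the first value. A higher minimum mean removes genes with low means, so the percentiles fall largely by construction. The interval does not measure spread between libraries. A minimum mean of 100 in place of 3 left 3 of 5 CCN genes, 1 of 2 epithelial, 1 of 3 endothelial, 2 of 5 leukocyte and 1 of 2 muscle markers, and a minimum of 10 left 3 leukocyte and 1 muscle marker, by the construction of the minimum. The TEAD core was found in 4 of 6 genes when only the gene's own strand was searched, with 7.70% of all windows, and in 6 within 150 bases of the start, with 9.76%. The tolerance for *Wisp2* made 10 times as wide again gave 1 solution. No paired analysis was possible because the result comes from a mean over both groups. For the same reason the planned test of *Ms4a15* OE against control, its other normalization, filter and tool, the replicate block and leaving out each replicate were not run. The planned comparison of proteins was not run either, as protein sequences were not used here.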
